A study of Homo sapiens with 12 samples.

Results

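The RNA-Seq libraries of HEK293T cells expressing EZH2 A677G were compared with those of HEK293T cells expressing the double mutant EZH2 H689A/F667I. The comparison was defined by the column names of the deposited count table, 3 replicates per line, so it used 6 of the 12 libraries. HEK293T is a human embryonic kidney cell line that carries the SV40 large T antigen. Lentivirus brought EZH2 WT, EZH2 Y641F, EZH2 A677G or EZH2 H689A/F667I into these cells, which were then selected with blasticidin. A677G and Y641F are the gain-of-function (GOF) mutants and H689A/F667I is the loss-of-function (LOF) mutant. All lines kept their endogenous EZH2, so a GOF or LOF line held a mixture of introduced and endogenous enzyme. Each genotype was 1 selected population, described in the study's methods as monoclonal, so that the mutation and the line that carries it cannot be told apart. The replicates are biological replicates of a line, and p-values measure the spread between them. Of 14438 genes in the table, 14263 were tested, after leaving out those at 0 in all 3 replicates of any line.

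EZH2 is the catalytic subunit of Polycomb repressive complex PRC2, which methylates lysine 27 of histone H3. Trimethylation of this residue (H3K27me3) marks repressed genes, among them many regulators of development and genes of differentiated cell types. Substitutions in the SET domain that raise the trimethylating activity of EZH2 are known from lymphoma. The comparison sets a GOF line beside a LOF line, without EZH2 WT as the reference.

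The substituted residues lie near the C-terminus of EZH2. The reference codons are shown because the lines differ only in them by design. Each is given in capitals within 27 bases of coding sequence, 5′ to 3′, on the minus strand of chromosome 7 of GRCh38, from the GENCODE transcript ENST00000460911.5, which encodes 746 residues.
Y641F codon: ttcatctcagaaTACtgtggagagatt
F667I codon: tgcagctttctgTTCaacttgaacaat
A677G codon: tttgtggtggatGCAacccgcaagggt
H689A codon: cgttttgcaaatCATtcggtaaatcca
The codon changed in Y641F lies in exon 16 at chr7:148811634-148811636, and that of F667I in exon 17 at chr7:148810346-148810348. The codons of A677G and H689A both lie in exon 18, at chr7:148809374-148809376 and chr7:148809338-148809340. The counts per gene do not tell which EZH2 sequence the reads came from.

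Total counts were between 36794751 and 44562413 in the A677G libraries and between 32137700 and 39407727 in the LOF libraries, and the 10 genes with most counts took 12.9% to 15.3% of any library. Replicate 1 of EZH2 Y641F stood apart from its line, with root mean square differences of 0.309 and 0.298 in log2 CPM from its other replicates, against 0.241 to 0.278 for all other replicate pairs of the series. It enters no comparison of A677G with LOF except through the shared estimate of the spread. Of 13 transcription factors of the embryonic kidney, 10 were among the genes tested. Of the markers of other cell types, 2 of 13 for blood cells, 6 of 11 for fibroblasts, 2 of 9 for endothelium and 0 of 8 for hepatocytes were tested, and 0 of those passed the threshold by the edgeR QL test (1 lower and 1 higher at an unadjusted p under 0.05, both fibroblast markers, and at most 1 in each direction by other tools). Summed blood cell markers were at 2.19 to 2.92 CPM in A677G and 2.00 to 2.699 CPM in LOF, and the summed fibroblast markers at 17.0 to 18.8 and 16.6 to 20.6 CPM. The summed endothelial markers were at 0.521 to 0.808 and 0.917 to 1.12 CPM. Abundant structured noncoding RNAs, which poly(A) selection removes in part, summed to 122243 to 133585 CPM in A677G and 126226 to 136761 CPM in LOF. In bulk libraries, less RNA of a gene per cell and fewer cells with that RNA cannot be told apart.

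*EZH2* itself (ENSG00000106462.12) was lower in the A677G line than in the LOF line. Its level, in CPM (counts scaled to library size with TMM factors), was 174, 165 and 182 in the A677G libraries and 208, 210 and 206 in the LOF libraries. The libraries of the lines did not overlap. The log2 fold change was -0.26 (standard error 0.0398, edgeR QL-test adjusted p = 1.09e-05). All adjusted p-values come from this quasi-likelihood (QL) test of edgeR, corrected over the whole table by Benjamini-Hochberg. EZH2 WT libraries were lower still, at 158 ± 4.32 CPM (SD, n = 3), and EZH2 Y641F libraries higher, at 218 ± 9.61 CPM. These values hold the introduced and the endogenous transcript together.

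Among the other PRC2 subunits, *C17orf96* (now *EPOP*), an accessory subunit that joins PRC2 to elongin, was lower in A677G, at 30.9, 27.03 and 27.7 CPM against 38.9, 35.3 and 39.0 CPM in LOF (log2 fold change -0.40, standard error 0.0631, adjusted p = 2.10e-05). The remaining 12 of the 14 subunits tested did not pass the threshold. These included the core subunits *EED* at 0.07 and *SUZ12* at 0.02 on the log2 scale, and *EZH1*, the paralogous catalytic subunit, at 0.10 with a standard error of 0.0853. PRC1, the other Polycomb complex, which ubiquitinates histone H2A, had 1 subunit lower and 1 higher of 23. *PCGF5* was lower at 52.7, 53.9 and 49.3 CPM against 64.2, 60.6 and 61.3 CPM, and *PCGF3* was higher at 91.7, 90.4 and 90.2 CPM against 81.2, 79.8 and 81.1 CPM. Their log2 fold changes were -0.26 and 0.17 (adjusted p = 4.99e-04 and 0.00448). Both encode RING finger subunits of variant PRC1, and in both the libraries of the lines did not overlap.

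In the A677G line, 1093 genes were lower and 377 higher than in the LOF line at an adjusted p under 0.05, which is 7.66% and 2.64% of the genes tested. Together these were 10.3% of all genes, and 74.4% of them were lower in A677G. The median log2 fold change was -0.57 among the lower genes and 0.20 among the higher genes, against 0.00 over all genes tested. Among them, 221 lower and 10 higher genes differed by 1 or more on the log2 scale. The replicates of the lines did not overlap at 1074 of the lower and 369 of the higher genes, where 15.5% of all genes had every A677G library below every LOF library and 13% the reverse. Lower genes had a median level of 3.01 log2 CPM and higher genes of 5.57 log2 CPM, against 4.61 for all genes. On the first principal component of the 6 libraries, with 46.4% of the variance, the A677G libraries scored 15.7, 18.4 and 17.0 and the LOF libraries -16.5, -16.0 and -18.7 (exact permutation test, two-sided, p = 0.1, where 3 against 3 libraries can give no smaller value).

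**Figure D1:**
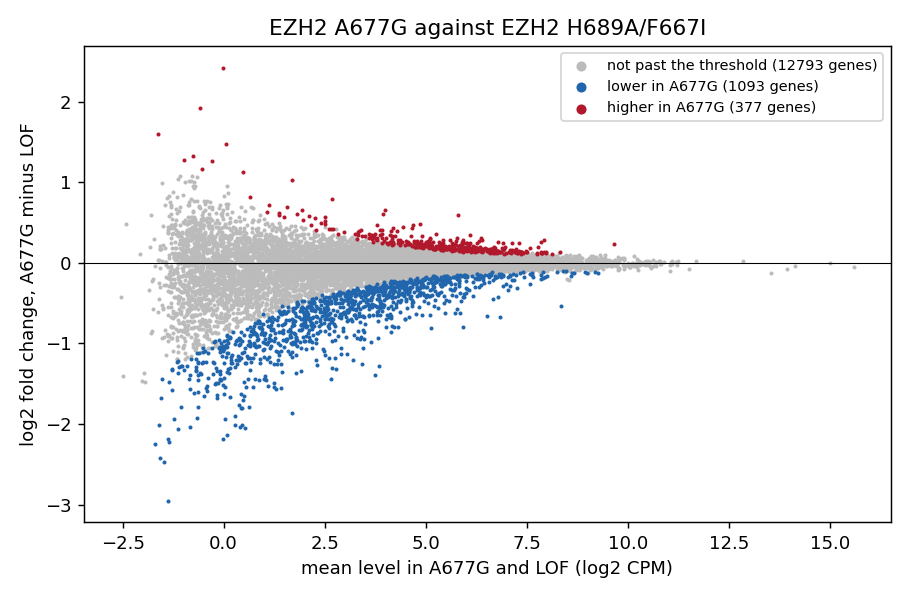
Log2 fold change of A677G against LOF (vertical) over the mean level in log2 CPM (horizontal), 1 point per gene. The 1093 lower genes in blue reach -2.95 and lie mostly at low and intermediate levels, while the 377 higher genes in red lie mostly close to the threshold at higher levels.

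The largest decreases were taken among genes at a mean of at least 1 log2 CPM with separate replicates. *IRF8* (ENSG00000140968.12, chromosome 16 of GRCh38, 85899116 to 85922606), a transcription factor of the myeloid and B cell lineages, was at 1.32, 1.77 and 1.97 CPM in A677G and at 7.85, 5.07 and 5.40 CPM in LOF. It was 3.64-fold lower (log2 fold change -1.86, standard error 0.190, adjusted p = 5.92e-09), and every A677G library was far below every LOF library. *LRRN2*, a membrane protein with leucine-rich repeats, was at 1.28, 1.38 and 1.54 CPM against 4.38, 3.97 and 4.07 CPM. *ADCYAP1R1*, the receptor of the neuropeptide PACAP, was at 3.68, 3.34 and 4.33 CPM against 10.5, 8.48 and 11.9 CPM. Their log2 fold changes were -1.57 (standard error 0.201, adjusted p = 5.79e-07) and -1.44 (standard error 0.139, adjusted p = 1.51e-09). The sodium/proton exchanger *SLC9A2*, the arachidonic acid epoxygenase *CYP2J2*, the centriolar protein *CCDC68*, the extracellular matrix protein *SVEP1* and the orphan receptor *GPR85* completed the 8 largest decreases, with log2 fold changes between -1.55 and -1.45. The smallest p-value of the whole comparison belonged to *SPON1* (ENSG00000262655.4, chromosome 11, 13962723 to 14268133), a secreted protein of axon outgrowth, at 8.01, 8.55 and 7.95 CPM in A677G and 20.5, 21.6 and 22.5 CPM in LOF (log2 fold change -1.40, standard error 0.0906, adjusted p = 2.62e-13). All genes in this paragraph stayed past the threshold when any 1 of the 6 libraries was left out. Of them, *CYP2J2*, *SLC9A2* and *SPON1* are on the study's list of EZH2 targets, chosen on both GOF lines against WT.

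Of the 8 largest increases under the same limits of level and separation, 4 were zinc finger genes of chromosome 19. *ZNF737* (ENSG00000237440.9, 20535825 to 20565809) was at 4.76, 4.74 and 4.44 CPM in A677G and at 3.08, 1.86 and 1.86 CPM in LOF, a log2 fold change of 1.03 (standard error 0.176, adjusted p = 6.62e-05). *ZNF681* was at 7.54, 8.85 and 8.67 CPM against 4.19, 4.76 and 5.46 CPM, and *ZNF91* (ENSG00000167232.14, 23304991 to 23395471) at 19.6, 20.6 and 19.4 CPM against 12.4, 12.5 and 13.1 CPM. All A677G libraries were above all LOF libraries at these genes. *ZNF681* rose by 0.80 and *ZNF91* by 0.65 on the log2 scale (adjusted p = 2.06e-05 and 1.26e-07). Proteins with such KRAB zinc fingers bind DNA, and *ZNF91* is known for repressing retrotransposons. These genes belong to families of near-identical paralogs, so that their reads may be split between copies. The fourth, *ZNF808*, rose by 0.64 (adjusted p = 0.0413) but remained past the threshold in only 1 of the 6 fits that left out a library, the one without A677G replicate 1 (adjusted p = 0.0480). The others were *DNASE1L2*, *PPAPDC3*, *LINC00665* and *LINC00893*, at 0.62 to 0.72 on the log2 scale. Each of them lost its call in 2 to 5 of those 6 fits, for example *PPAPDC3* without A677G replicate 3 (adjusted p = 0.120) or LOF replicate 3 (adjusted p = 0.147).

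**Figure D2:**
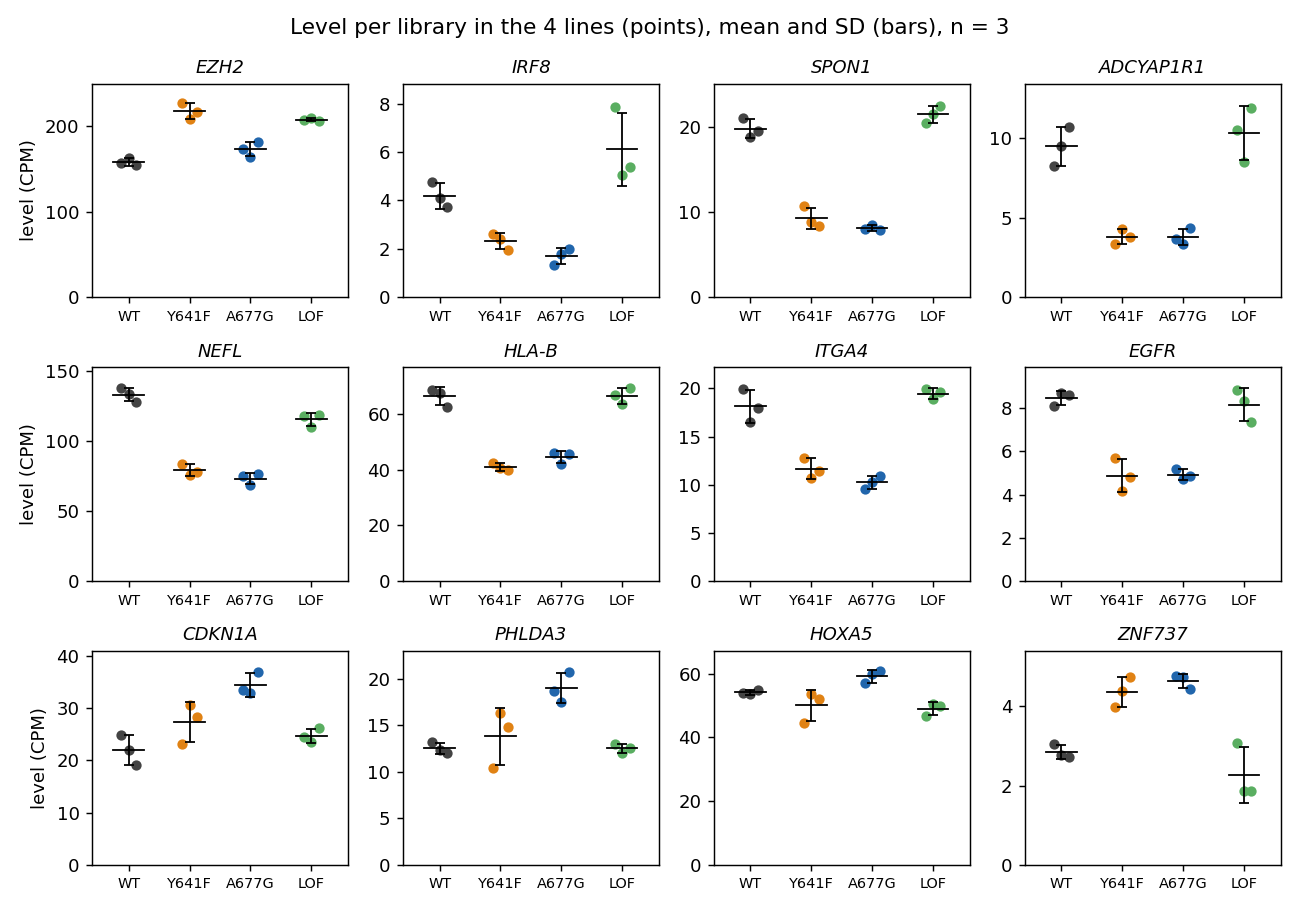
CPM per library (points) with mean and SD (bars, n = 3) in the 4 lines for 12 genes, each axis starting at 0. At *SPON1*, *ADCYAP1R1*, *NEFL*, *HLA-B*, *ITGA4* and *EGFR* the A677G and Y641F libraries lie together below the WT and LOF libraries, whereas *EZH2* does not follow this order. Of these genes, *SPON1*, *ITGA4* and *EGFR* are on the study's list of EZH2 targets, chosen on both GOF lines against WT.

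Genes were then grouped by function. The study's own list of EZH2 targets had been chosen on A677G and Y641F against WT in these samples, so its direction here is not independent evidence. Of its members, 98 (90.7%) were lower in A677G than in LOF, 0 were higher and the other 10 did not pass, with a median log2 fold change of -0.67 and a highest of -0.09, so that none lay above 0. The LOF libraries did not enter that choice. With 1 of the 6 libraries left out, 80 to 88 members were lower. *COL4A4*, a chain of basement membrane collagen, was at 0.538, 0.762 and 0.384 CPM in A677G and at 1.60, 1.45 and 1.83 CPM in LOF. *EGFR*, the epidermal growth factor receptor, was at 5.21, 4.72 and 4.85 CPM against 8.82, 8.33 and 7.35 CPM. *RPRM*, which takes part in the arrest of the cell cycle at G2, was at 0.740, 0.786 and 0.932 CPM against 1.57, 1.88 and 2.05 CPM. The libraries of the lines did not overlap at any of these, and the log2 fold changes were -1.52, -0.73 and -1.16 (adjusted p = 4.98e-04, 6.76e-05 and 0.00315). *WNT16*, a secreted WNT ligand, was low in all libraries, at 0.135, 0.270 and 0.247 CPM against 0.974, 0.306 and 0.683 CPM (log2 fold change -1.58, adjusted p = 0.0268). Its call was lost without A677G replicate 1 or 3 or LOF replicate 1 or 3, with an adjusted p of 0.247 without LOF replicate 1. Other members that the study names also lost their calls when a library was left out. These were *ADORA1* and *CD1D* in 5 of the 6 fits, *MET* and *NRP2* in 4, *CD55* in 3 and *ENC1* in 2.

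Neuronal and synaptic genes were the list with the largest share of lower members after the study's targets. The lists share *GAP43*, *KALRN*, *NFASC*, *NRCAM*, *RAB3C* and *TENM4*. The targets were chosen on both GOF lines against WT, so the direction of these shared members is not independent evidence. Of 61 tested, 27 (44.3%) were lower and 2 higher, with a median of -0.30. *NEFL* (ENSG00000277586.4) and *NEFM*, the light and medium chains of neurofilaments, were at 74.7, 68.6 and 76.1 CPM and at 99.2, 81.2 and 92.6 CPM in A677G. In LOF they were at 118, 110 and 119 CPM and at 140, 152 and 144 CPM. Every A677G library was below every LOF library, with log2 fold changes of -0.66 (standard error 0.0465, adjusted p = 9.23e-13) and -0.67 (standard error 0.0639, adjusted p = 1.33e-09). *CNTNAP2* (chromosome 7, 146116002 to 148420998), a neurexin-like adhesion protein of axons, was at 27.4, 23.8 and 27.6 CPM against 47.6, 44.2 and 45.9 CPM. *RIMS4*, a protein of the presynaptic active zone, was at 36.03, 37.6 and 39.9 CPM against 49.1, 51.2 and 50.9 CPM. Their log2 fold changes were -0.81 and -0.41 (adjusted p = 5.85e-12 and 2.72e-07). The higher members were *HOMER1*, a postsynaptic scaffold protein, at 0.19, and *UNC13B*, a factor of vesicle priming, at 0.16. The call of *UNC13B* was lost without A677G replicate 1 (adjusted p = 0.0594).

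Ligands and receptors of axon guidance differed in both directions. Of 65, 13 were lower and 6 higher, with a median of -0.05. The lower count was 8 without A677G replicate 2, and the higher count was 3 without A677G replicate 3. The ephrin receptors *EPHB2* and *EPHA8* and the netrin *NTN4* were lower, with log2 fold changes of -0.55, -0.64 and -0.91. *NTN4* and *NRP2* of this list are among the study's EZH2 targets, so their direction here is not independent evidence. *EPHB2* was at 14.8, 15.04 and 18.04 CPM in A677G and 23.1, 23.05 and 23.7 CPM in LOF. *SEMA3C*, a secreted semaphorin, was higher, at 25.2, 26.2 and 24.5 CPM against 19.3, 17.2 and 19.6 CPM (log2 fold change 0.44, standard error 0.0754, adjusted p = 7.27e-05).

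Genes of the extracellular matrix and of adhesion were lower where they differed. Of 40 collagen and laminin chains, 14 (35%) were lower and 0 higher, with a median of -0.27. *COL4A1* and *COL4A2*, the chains of the common type IV collagen of basement membranes, lie head to head on 1 chromosome. *COL4A1* was at 28.3, 26.6 and 28.6 CPM in A677G and at 38.7, 39.7 and 39.8 CPM in LOF, and *COL4A2* was at 67.1, 67.8 and 65.0 CPM against 81.7, 80.9 and 83.9 CPM. The log2 fold changes were -0.50 and -0.30 (adjusted p = 8.50e-07 and 3.47e-05). *COL5A2*, a chain of fibrillar collagen, differed by -0.69. Of 19 integrin chains, 5 alpha chains were lower and 0 higher, with 3 lower when A677G replicate 1 or 3 was left out. The members *ITGA2*, *ITGA4*, *ITGA6*, *COL4A4* and *COL25A1* of these lists are also among the study's EZH2 targets. Those were chosen on both GOF lines against WT, so their direction here is not independent evidence. *ITGA4* was at 9.51, 10.3 and 10.9 CPM against 19.9, 18.9 and 19.6 CPM (log2 fold change -0.93, standard error 0.0885, adjusted p = 1.43e-09), and *ITGA6*, part of laminin receptors, at 30.6, 31.1 and 29.2 CPM against 43.9, 46.1 and 42.0 CPM (log2 fold change -0.54, adjusted p = 6.58e-08). *ITGA7* was lower by the same test at -0.65. *ITGA2* at -0.32 and *ITGA8* at -0.33 were closer to the threshold, and lost their calls in 3 and 5 of the 6 fits that left out a library. Without LOF replicate 3, the adjusted p of *ITGA8* was 0.268, and without A677G replicate 3 that of *ITGA2* was 0.124.

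Receptors and ligands of signalling pathways that were called were lower with 1 exception. The lower share was 24.1% of receptor tyrosine kinases, 21.6% of WNT genes and 16% of TGF-beta and BMP genes, against 7.66% of all genes. The members *EGFR*, *MET*, *ROR1*, *WNT16* and *PMEPA1* are among the study's EZH2 targets. Those were chosen on both GOF lines against WT, so their direction here is not independent evidence. Of 29 receptor tyrosine kinases, 7 were lower and 0 higher. Besides *EGFR*, these included *FLT1*, a receptor of vascular endothelial growth factor, at 13.4, 12.3 and 12.9 CPM against 17.6, 19.9 and 17.9 CPM, and *KIT*, the stem cell factor receptor, at 19.99, 19.8 and 21.1 CPM against 25.7, 26.7 and 25.5 CPM. Their log2 fold changes were -0.52 and -0.36. Of 37 WNT ligands, receptors and inhibitors, 8 were lower and 0 higher, and the lower count was 4 without LOF replicate 3 and 5 without A677G replicate 2. *SFRP1* and *NKD1*, which antagonise WNT signalling, and the ligand *WNT11* were at -0.72, -0.58 and -0.68 (adjusted p = 1.30e-06, 4.87e-04 and 0.00102). Of 50 genes of the TGF-beta and BMP pathway, 8 were lower, among them the receptor *ACVR1C* at -0.79, the ligands *BMP3* at -1.45 and *GDF6* at -0.80, and *ID1*, a target gene of BMP, at -0.28. The exception was *BMPR2*, a BMP receptor, which was higher by 0.16 (adjusted p = 0.0487). Of the 6 fits that left out a library, *BMPR2* passed in 1, without LOF replicate 3 (adjusted p = 0.0125), and its highest adjusted p was 0.295, without LOF replicate 1.

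In the list of hematopoietic cell lineage genes, 13 of 30 (43.3%) were lower and 0 higher, with a median of -0.42. This list shares its integrin chains, *KIT* and *FLT3* with the lists above. Its members *CD1D*, *CD55*, *CR2*, *ITGA2*, *ITGA4* and *ITGA6* are also among the study's EZH2 targets. Those were chosen on both GOF lines against WT, so their direction here is not independent evidence. *CSF1*, the growth factor of macrophages, was at 3.39, 3.46 and 2.82 CPM in A677G and at 5.84, 6.72 and 6.61 CPM in LOF (log2 fold change -0.98, standard error 0.137, adjusted p = 2.79e-06). *CD9*, a tetraspanin of the cell surface, was at 19.8, 20.5 and 22.2 CPM against 31.3, 30.1 and 29.5 CPM (log2 fold change -0.54, adjusted p = 3.46e-07). The complement receptor *CR2* was at -1.03 (adjusted p = 0.00285). Every A677G library was below every LOF library at these genes. The markers of blood cells themselves, such as *CD68* at 0.22 (adjusted p = 0.701), did not pass the threshold, and the sums given above for that list overlapped between the lines.

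Interferon-stimulated genes, which act in antigen presentation and the defence against viruses, were lower at 10 of 31 (32.3%) and higher at 0, with a median of -0.20. *HLA-B* (ENSG00000234745.14, chromosome 6, 31353872 to 31367067), a heavy chain of MHC class I, was at 46.0, 42.1 and 45.4 CPM in A677G and at 66.8, 63.4 and 69.1 CPM in LOF. The log2 fold change was -0.58 (standard error 0.0510, adjusted p = 2.22e-10), with reads that may be shared with other HLA class I genes. *OAS3*, a sensor of double-stranded RNA, was at 0.561, 0.688 and 0.823 CPM against 2.25, 2.24 and 2.6997 CPM, and *SAMD9*, an antiviral factor, at 0.808, 0.541 and 0.987 CPM against 2.27, 2.6995 and 2.36 CPM. Both were low in every library but separate, with log2 fold changes of -1.80 and -1.65 (adjusted p = 1.36e-05 and 8.08e-05). *HERC5*, the ligase of ISG15, was at -0.41.

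Developmental transcription factors were called in both directions and HOX genes in 1. Of 114 developmental transcription factors outside the HOX clusters, 21 (18.4%) were lower and 4 (3.51%) higher, with a median of -0.08. *EYA2*, a phosphatase and transcriptional cofactor, was at 6.08, 5.80 and 5.87 CPM in A677G and at 11.4, 10.95 and 11.3 CPM in LOF (log2 fold change -0.92, standard error 0.108, adjusted p = 1.06e-07). *VGLL2*, a cofactor of TEAD proteins in muscle, was at 0.449, 0.418 and 0.439 CPM against 2.22, 1.55 and 2.20 CPM (log2 fold change -2.18, adjusted p = 1.93e-06). *SOX21* and *BARX2* were lower by the same test, at -0.65 and -0.72. The members *BARX2*, *VGLL2*, *ALX4*, *EN2* and *HLF* are also among the study's EZH2 targets. Those were chosen on both GOF lines against WT, so their direction here is not independent evidence. Among the higher members were *FOXC1*, *TBX2* and *ZIC2*, between 0.19 and 0.27 on the log2 scale. *FOXC1*, a forkhead factor, was at 226, 232 and 243 CPM against 192, 211 and 206 CPM (adjusted p = 0.00102). The call of *ZIC2* was lost without A677G replicate 3 or LOF replicate 1.

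Of 36 HOX genes, which set position along the body axis, 0 were lower and 4 higher, all in the HOXA cluster, and the higher count was 2 without LOF replicate 3. *HOXA5* was at 56.9, 60.01 and 60.7 CPM in A677G and at 46.7, 50.4 and 49.8 CPM in LOF, and *HOXA13* at 37.5, 38.6 and 38.0 CPM against 28.0, 30.3 and 34.1 CPM. The libraries did not overlap, and the log2 fold changes were 0.27 (standard error 0.0550, adjusted p = 5.87e-04) and 0.31 (standard error 0.0644, adjusted p = 9.62e-04). *HOXA10* at 0.21 lost its call without LOF replicate 3 (adjusted p = 0.0579), and *HOXA11* at 0.19 lost its call in 5 of the 6 fits with a library left out, with an adjusted p of 0.291 without A677G replicate 1. The median over the HOX genes was 0.05. Clustered protocadherins, another set of long gene clusters, had 0 of 3 tested past the threshold by the edgeR QL test, and 0 at an unadjusted p under 0.05 or by other tools.

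Targets of p53 were the list with the largest share of higher members. Of 33, 13 (39.4%) were higher and 1 lower, with a median of 0.16. *CDKN1A* (ENSG00000124762.14, chromosome 6, 36676460 to 36687337), an inhibitor of cyclin-dependent kinases, was at 33.4, 32.9 and 37.0 CPM in A677G and at 24.5, 23.5 and 26.1 CPM in LOF (log2 fold change 0.48, standard error 0.0821, adjusted p = 6.99e-05). *PHLDA3*, an inhibitor of AKT, was at 18.7, 17.5 and 20.7 CPM against 12.99, 11.99 and 12.5 CPM (log2 fold change 0.60, standard error 0.105, adjusted p = 8.37e-05). *TNFRSF10B*, a receptor of the death ligand TRAIL, and *POLH*, a translesion DNA polymerase, were at 0.28 and 0.29 (adjusted p = 2.22e-04 and 3.42e-04). *RPS27L*, a paralog of a ribosomal protein, was at 0.25 and was at the same time the 1 member called in the list of 81 ribosomal proteins. In each of these the A677G libraries were above the LOF libraries. The exception was *PLK2*, a polo-like kinase, which was lower at 5.09, 4.99 and 5.76 CPM against 8.36, 6.75 and 8.72 CPM (log2 fold change -0.59, adjusted p = 0.00106). The large T antigen of HEK293T binds p53, and its level was not analysed here.

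Genes of proliferation were near 0. Of 55 genes of DNA replication and mitosis, 0 passed the threshold in either direction by the edgeR QL test, with log2 fold changes between -0.08 and 0.13. At an unadjusted p under 0.05, 0 were lower and 2 higher, and by the other tools and settings 0 were lower and at most 1 higher. Their member with the smallest p-value was *CCNB2*, a mitotic cyclin, at 0.13 (adjusted p = 0.0703). *CCND1*, which encodes cyclin D1, was lower at 75.9, 71.8 and 76.6 CPM against 90.7, 90.0 and 90.1 CPM (log2 fold change -0.27, standard error 0.0421, adjusted p = 1.65e-05). *CDKN2B*, an inhibitor of the kinases that cyclin D1 activates, was higher by 0.28 (adjusted p = 0.0180), a call lost without A677G replicate 2 (adjusted p = 0.164) or LOF replicate 2 or 3.

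Lists of metabolism, histones and chromatin enzymes differed in their share of calls, against 7.66% lower and 2.64% higher over all genes tested. In the histone list 22.9% were lower and 2.08% higher, and in the list of the ATF4 response 9.4% and 3.1%. The higher share was 12.5% in NAD metabolism and 22.2% among the H3K27 and H3K36 enzymes, with 0 lower in both. Of 77 nuclear-encoded subunits of the respiratory chain and ATP synthase, 0 were called by the edgeR QL test, 3 lower and 2 higher passed an unadjusted p of 0.05, and at most 1 was called by any other tool or setting. The log2 fold change of *SDHB*, which had the smallest p-value among them, was -0.12 (adjusted p = 0.0528). Of 24 genes of NAD metabolism, *NNT*, *NT5C2* and *SARM1* were higher, at 0.14 to 0.33, and each of them lost its call in 2 to 4 of the 6 fits with a library left out, with adjusted p-values of up to 0.195 (*NNT* without LOF replicate 1). Cholesterol synthesis had 1 lower and 1 higher of 24, and the ATF4 response with serine synthesis 3 lower and 1 higher of 32, with *ATF4* itself at -0.13. Replication-dependent histone genes were lower at 11 of 48 and higher at 1, with a median of -0.09. Their sum was 13615 to 13663 CPM in A677G and 14321 to 14789 CPM in LOF. Mature transcripts of these genes have no poly(A) tail, several are near-identical copies, and their count of lower genes was 2 to 7 when a library was left out and up to 23 under other settings. Of 9 demethylases, acetylases and methylases linked to H3K27 and H3K36, *WHSC1* (*NSD2*) and *WHSC1L1* (*NSD3*) were higher, at 0.12 and 0.13, and these calls were lost in 3 and 5 of the 6 fits, with adjusted p-values of up to 0.0809 and 0.158. *MALAT1*, a long noncoding RNA that binds EZH2, was higher by 0.18 (adjusted p = 0.00983), and its call was lost without A677G replicate 1 (adjusted p = 0.104), LOF replicate 1 or LOF replicate 3.

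**Figure D3:**
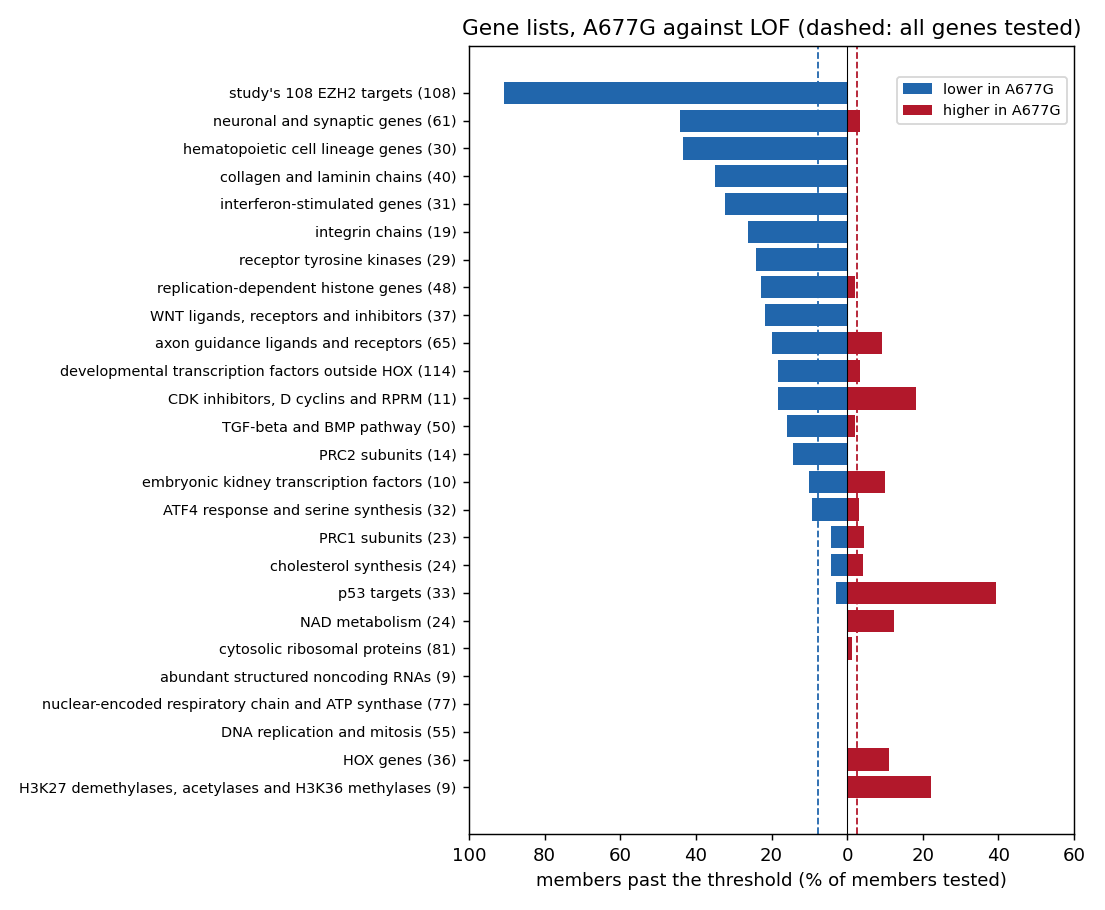
Percent of tested members of each list past the threshold, lower to the left in blue and higher to the right in red, with the number tested in brackets; dashed lines mark the shares over all genes, 7.66% and 2.64%. Neuronal, hematopoietic, matrix and interferon lists extend furthest to the lower side after the study's targets, and p53 targets furthest to the higher side.

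Where a list had 0 calls in 1 direction by the edgeR QL test, few members passed in that direction at an unadjusted p under 0.05. As higher, these were 0 of the study's targets, 0 of the integrin chains, 0 of the hematopoietic genes, 1 of the interferon-stimulated genes, 2 of the receptor tyrosine kinases, 3 of the collagen and laminin chains and 3 of the WNT genes. As lower they were 0 of the HOX genes. By DESeq2, edgeR's exact test, limma voom and the other settings, at most 2 members of any of these lists were called in that direction, both of them collagen or laminin chains.

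EZH2 WT libraries did not enter the comparison and give a reference for the place of both lines. On the axis from the LOF mean (0) to the A677G mean (1) in log2 CPM, the median place of the WT mean was 0.14 at the lower genes and 0.33 at the higher genes. WT libraries overlapped the LOF libraries and not the A677G libraries at 743 of the 1093 lower genes (68.0%) and at 193 of the 377 higher genes (51.2%), where 20.5% of all genes tested had this pattern. They overlapped the A677G libraries alone at 80 lower genes (7.32%) and 61 higher genes (16.2%), against 8.32% of all genes. Some members of the neuronal list are among the study's EZH2 targets, which were chosen on both GOF lines against WT. Among the 29 called neuronal and synaptic genes, WT overlapped LOF alone at 22 and A677G alone at 0. The corresponding counts were 10 and 0 of 14 for p53 targets and 7 and 1 of 10 for interferon-stimulated genes. At the 12 called histone genes these counts were 4 and 3, with a median place of 0.43. *EZH2* was outside the range, with WT at 1.503, below both lines. *HLA-B* had 66.3 ± 3.21 CPM in WT (SD, n = 3) and 66.4 ± 2.91 CPM in LOF, a place of 0.01, and *NEFM* in WT, at 185 ± 7.11 CPM, exceeded the LOF line, at 145 ± 6.21 CPM.

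**Figure D4:**
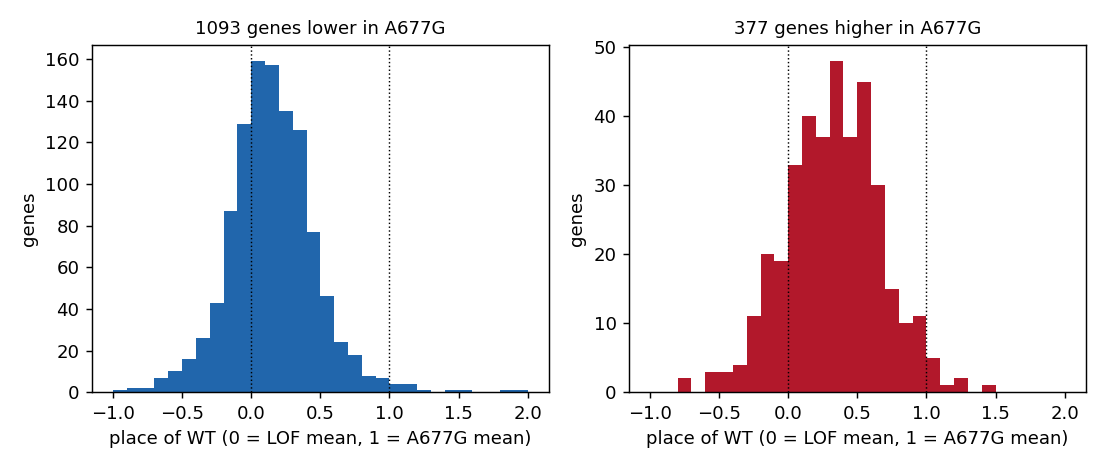
Number of genes (vertical) by the place of the WT mean between the LOF mean, at 0, and the A677G mean, at 1 (horizontal), for the 1093 lower genes (left) and the 377 higher genes (right). Most lower genes lie near 0 and the higher genes are spread more evenly between both ends, with medians of 0.14 and 0.33, and 1 lower gene below -1 is drawn at the edge.

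At a smaller set of the called genes the LOF libraries overlapped neither A677G nor WT, and WT was nearer to A677G, at 95 lower and 82 higher genes. Over all 14263 genes, called or not, 317 (2.22%) had this pattern with A677G lower and 319 (2.24%) with A677G higher. LOF against WT itself had 23 genes lower and 20 higher in LOF by the edgeR QL test. *C8orf4* (now *TCIM*), a regulator of WNT signalling, was at 4.17, 3.11 and 4.16 CPM in LOF, at 1.66, 1.77 and 1.32 CPM in A677G and at 1.35, 1.24 and 1.93 CPM in WT. A677G differed from LOF by -1.26 (standard error 0.215, adjusted p = 6.79e-05). *TUBA4A*, an alpha tubulin, had 5.90, 6.62 and 6.27 CPM in LOF, 2.71, 3.29 and 4.11 CPM in A677G and 4.95, 4.76 and 3.59 CPM in WT. The WT mean of *TUBA4A* was about midway between those of LOF and A677G on the log2 scale. In the other direction, *MAGEB2*, a cancer/testis antigen, was at 4.98, 4.53 and 4.28 CPM in LOF, at 7.11, 7.08 and 6.25 CPM in A677G and at 6.82, 5.90 and 7.30 CPM in WT (log2 fold change of A677G against LOF 0.57, adjusted p = 0.00229). *KCNJ4*, an inward rectifier potassium channel, had the WT mean about midway, at a place of 0.55. These examples were taken for their size by a fixed rule, and the pattern by which they were chosen is not tested again here.

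The comparison of EZH2 Y641F with EZH2 WT shares no library with that of A677G and LOF, although both used the same estimate of the spread. In it, 797 genes (5.59%) were lower and 298 (2.09%) higher in Y641F. Of the 1093 genes lower in A677G than in LOF, 1031 (94.3%) were below 0 in Y641F against WT, where 49.0% of all genes were, and 572 passed the threshold as lower. These 572 were 52.3% of the genes lower in A677G and 71.8% of those lower in Y641F, and 2 genes were called in opposite directions. The 572 include the 98 called members of the study's list of EZH2 targets, which was chosen in part on Y641F against WT. Of the 377 higher genes, 316 (83.8%) were above 0 and 61 passed the threshold as higher, 16.2% of one list and 20.5% of the other, with 1 gene called the opposite way. The median log2 fold change in Y641F against WT was -0.39 at the lower genes and 0.09 at the higher genes, against 0.00 over all genes. Across the 14263 genes, which are not independent replicates, Pearson's r between the differences was 0.60 and Spearman's rho 0.42. Without Y641F replicate 1, the library that stood apart, 645 lower and 70 higher genes were shared.

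The genes that led the comparison of A677G with LOF had these values in the other one. *SPON1* was at -1.09 (standard error 0.0896, adjusted p = 5.17e-11) in Y641F against WT, *ADCYAP1R1* at -1.32, *NEFL* at -0.75 and *HLA-B* at -0.70, all past the threshold. *SPON1* is on the study's list of EZH2 targets, chosen in part on Y641F against WT, so its value here is not independent evidence. Of the lists, 19 of the 29 called neuronal genes, 11 of the 13 hematopoietic genes, 7 of the 10 interferon-stimulated genes and 6 of the 14 p53 targets were also called in the same direction. Over all called genes, 52.3% of the lower and 16.2% of the higher genes were. Some neuronal and hematopoietic members are also among the study's EZH2 targets, chosen in part on Y641F against WT. *CDKN1A* was at 0.31 (adjusted p = 0.0142), while *PHLDA3* was at 0.14 (adjusted p = 0.518). For the HOX genes, all called higher, the count of shared calls was 0 of 4, with *HOXA5* at -0.11 (adjusted p = 0.254). Against the share of 16.2% of all higher genes, 4 genes are too few to set this list apart. For the histone genes the count was 0 of 12. *EZH2* had the opposite sign, 0.46 against -0.26.

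**Figure D5:**
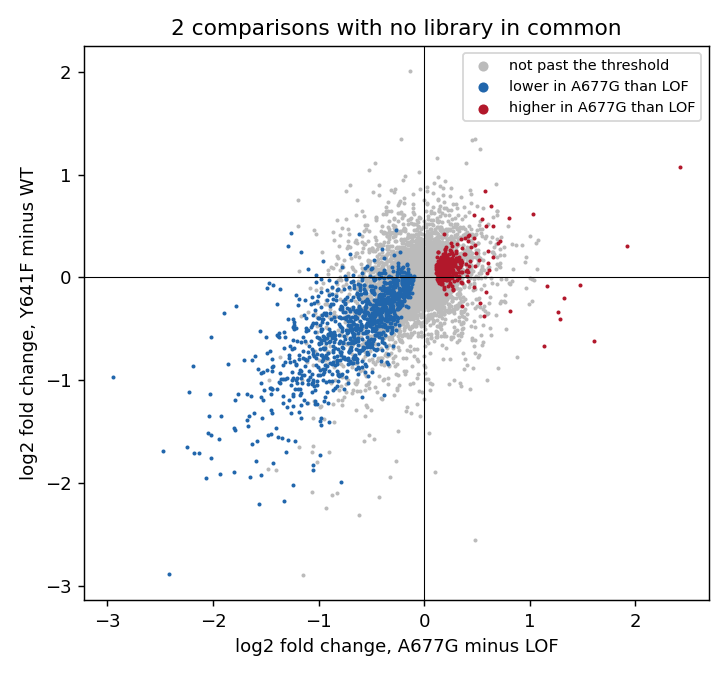
Log2 fold change of Y641F against WT (vertical) and of A677G against LOF (horizontal) for the 14263 genes, 1 point per gene, with the 1093 lower genes in blue and the 377 higher genes in red. Of the lower genes 1031 lie below 0 on the vertical axis, and of the higher genes 316 lie above 0 and closer to it.

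Features of the sequence were compared at the called genes as a description. For 13922 genes the GC content could be computed, with a median of 47.8% over all genes, 47.6% at the lower and 45.4% at the higher genes. The median length of the longest annotated transcript was 3843 bases over all genes, 4626 at the lower and 5408 at the higher genes. In RefSeq promoters of GRCh38.p14, taken from 250 bases before to 50 after the start site and matched for 840 lower and 312 higher genes, the CG dinucleotide (read on either strand) occurred at a median of 27 and 26.5 times, against 26 times in the 11029 promoters of all genes. At least 1 CG was present in 99.6% of lower, 99.7% of higher and 99.6% of all promoters. Per chromosome, chromosome 19 had the smallest share of lower genes, 16 of 954 (1.68%), with 47 (4.93%) higher.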

How the data were processed

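RNA was isolated from HEK293T lines, prepared with the TruSeq Stranded mRNA kit and sequenced on an Illumina instrument. According to the study's methods and the submitters' processing notes, the authors trimmed reads with Trim Galore 0.6.5, aligned them to GRCh38 with STAR 2.7.9a, estimated transcript abundance with Salmon 1.2.0 and deposited raw counts per gene symbol, whole numbers without normalization. The step from Salmon estimates to counts and the filter on genes are not given in the sources used here.

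Genes at 0 in all 3 replicates of a line (175) were left out. In A677G, 134 genes were at 0 in all replicates and 0 in exactly 2 of them. All 14263 others passed filterByExpr. A quasi-likelihood model of edgeR 4.0.16 (R 4.3.3) with TMM factors and 1 coefficient per line was fitted to the 12 libraries, where the study names the exact test of edgeR, and p-values were corrected over the whole table (Benjamini-Hochberg). CPM are TMM-scaled, with 2 as the prior count on the log2 scale. The common biological coefficient of variation was 0.0471. Replicate pairs differed beyond sampling noise (chi-square per degree of freedom 3.33 to 6.60). Depth and counting precision follow from 32137700 to 44562413 counts per library, and intervals between replicates include counting error.

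Symbols were matched to GENCODE on GRCh38 (13272 by name, 810 by synonym, 356 unmatched). The comparison, its gene lists and the rule for named genes were chosen with earlier results of these data known. Named were PRC2 subunits, the 8 largest changes in each direction, up to 4 called members per list by p-value with 1 of the rarer direction, all members of counts of 5 or fewer, the genes the study names for RNA, and the 3 largest changes in each direction at which LOF stood apart. Mitochondrial mRNAs were not analysed here. For 1 named gene no result is reported here. The alternatives were upper-quartile factors, library totals, DESeq2 1.42.0, edgeR's exact test, limma 3.58.1 voom, a robust fit, other filters, thinned counts, a replicate block, removal of the GC trend, only the compared groups, a minimum log2 fold change and each replicate left out. The procedure was tested on simulated data.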

Additional observations from a re-analysis of the deposited data

Results flagged for a closer look

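Genes at 0 in all replicates of a line were left out of the comparison. At 14 of them, every library of A677G or of LOF was above every WT library, scaled to library totals. Only 1 of these, *MMP14*, had every such library at more than 3 times the highest WT level. *MMP14*, a membrane-bound matrix metalloprotease, is listed at 0 in all 3 A677G libraries and had 85, 110 and 94 counts in the LOF libraries. In WT it had 20, 16 and 7 counts and in Y641F 17, 24 and 11 counts, so every LOF library was above every WT and every Y641F library. In A677G and LOF, zeros came in all 3 replicates of a line at once for 134 and 100 genes, whereas 0 genes were at 0 in exactly 2 replicates and 3 genes in exactly 1 replicate of A677G, and no fold is given for such a gene. Of the left-out genes, 72 had 10 or more counts in every WT replicate.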

How the results depend on the processing

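The number of lower genes stayed within 1.5 times of 1093 under every alternative except the required absolute log2 fold change of at least 1, which left 221 lower and 10 higher genes, 88 genes shared in direction with Y641F against WT, and *EZH2*, at -0.26, no longer called. The number of higher genes was 241 with upper-quartile factors, which shifted the median log2 fold change by -0.02 and raised the share of lower calls to 83.6%, 605 with limma voom and 581 when WT and Y641F were kept out of the fit. Leaving out 1 replicate gave 209 to 263 higher and 826 to 849 lower genes. Same-numbered A677G and LOF replicates did not deviate together (correlations -0.04 to 0.01), so the numbers do not pair the samples, and the fit with the replicate block also gave 1093 lower and 377 higher genes, of which 1429 were shared calls. With the GC trend removed there were 1178 and 420, and 1176 and 415 with the block too. Other settings gave 1010 to 1228 lower and 324 to 435 higher genes. Among genes that were never called, signs turned at *LCORL* (-0.0011 with upper-quartile factors, -0.019 to 0.055 with a replicate left out), *SUZ12* (-0.0016 and -0.013 to 0.043) and *PRNP* (-0.048 to 0.0073 with a replicate left out). Of 116 named genes called besides *EZH2*, 116 kept their direction throughout and 80 stayed past the threshold in all settings but the required size. The cause was not tested. The median place of WT over all called genes, 0.18, stayed between 0.16 and 0.19. Depth limits low genes such as *WNT16*, at 0.135 to 0.974 CPM in the 6 libraries.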

Other observations

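Zinc finger genes of chromosome 19 were looked at after their values were seen, because they were 4 of the 8 largest increases among genes at a mean of at least 1 log2 CPM with separate replicates. Of 210 genes named ZNF on chromosome 19, 22 (10.5%) were higher in A677G than in LOF and 1 was lower, with a median log2 fold change of 0.10. Among 246 genes named ZNF on other chromosomes, 15 (6.10%) were higher and 7 lower, with a median of 0.04. The 744 other genes of chromosome 19 had 25 (3.36%) higher and 15 lower, also with a median of 0.04. Over all genes tested, 2.64% were higher. Of the 22 higher genes, 5 were also called higher in Y641F than in WT, libraries that this comparison did not use. Over all genes higher in A677G, 61 of 377 (16.2%) were. Of the 15 higher ZNF genes on other chromosomes, 0 were. The ZNF genes of chromosome 19 have many near-identical paralogs, and the part of reads shared between copies was not tested.

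*FER*, a tyrosine kinase, was at 58.8, 62.0 and 60.1 CPM in A677G and at 56.3, 58.6 and 59.5 CPM in LOF, a log2 fold change of 0.05 (edgeR QL-test adjusted p = 0.615), while the WT libraries were at 50.2 to 51.3 CPM. *CA2*, which encodes carbonic anhydrase II, was lower, at 103, 95.8 and 87.5 CPM against 138, 123.003 and 124 CPM (log2 fold change -0.43, standard error 0.0538, adjusted p = 4.42e-07).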
